A study of Mus musculus with 6 samples.

Results

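S100a10, S100a11, S100a6, S100a4, Anxa2, Lgals1, Crip1 and Vim are genes whose mRNAs are known to be more abundant in effector and memory T cells than in naive ones. Their poly(A) tails and tag counts were examined in naive CD4 T cells with and without BTG1 and BTG2. The 8 Ensembl gene IDs were chosen by name, in a list drawn up with the tag counts and tail lengths of these libraries already known, and which of those values put each gene on the list is not stated. The differences between genotypes below are therefore descriptions and not independent evidence. Of the 8 IDs, 5 had tags, and they held 195 of the 84157 tailed, gene-linked tags and were 5 of the 6469 IDs with such a tag.

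The assay was mTAIL-seq, in which an adaptor is ligated to the 3' end of RNA and the end of each transcript is read together with its tail. Reads are grouped into tags, and those with a tail of at least 5 nt are called tailed here. The cells were sorted as TCRb+ CD4+ CD25- CD62L-high CD44-low. The 3 WT libraries came from littermates with floxed alleles of both genes (Btg1f/f Btg2f/f), and the 3 DKO libraries from mice with the same floxed alleles and CD4-Cre, a transgene active from the CD4-expressing stage of the thymus onwards. All groups thus share the floxed alleles, and the controls carry no Cre. The protocol speaks of 2 pairs of mice for 3 replicates per genotype, so that libraries may share mice. The p-values set each difference only against the variation between these libraries, which may in part be technical. Ages of the mice are not stated in the sources used here.

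S100A10 is a small protein of the S100 family that does not respond to calcium and is best known as the partner of annexin A2, with which it links membranes to the cortical cytoskeleton. S100A11, S100A6 and S100A4 are calcium-binding relatives. Galectin-1, the product of Lgals1, binds cell surface glycans. CRIP1 is a small LIM domain protein, and vimentin builds intermediate filaments. The length of a poly(A) tail is set by its synthesis in the nucleus and its shortening in the cytoplasm, largely by the CCR4-NOT deadenylase, which BTG1 and BTG2 bind.

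In the RefSeq table for GRCm38.p6, S100a10 (ENSMUSG00000041959) lies on chromosome 3 from 93555117 to 93564645, and S100a11 (ENSMUSG00000027907) on the same chromosome from 93520496 to 93526288. Crip1 (ENSMUSG00000006360) lies on chromosome 12 from 113152012 to 113153879. Vim (ENSMUSG00000026728) lies on chromosome 2 from 13574311 to 13582826, and Lgals1 (ENSMUSG00000068220) on chromosome 15 from 78926725 to 78930465. The tables used here give no position for single tags, so the exon or end that a tag came from is not known.

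Each tag comes with a called tail length and a string of bases. For the listed genes no string was longer than 100 bases, and some were empty or much shorter than the called tail. The S100a11 tail of 202 nt in WT replicate 1, for example, had a string of 14 bases. In such tags the length is a call that the string does not show. For 38 of the 77 S100a10 tags the deposited string was as long as the tail, and 37 of these held A alone. A tail of 28 nt from DKO replicate 2, tied for the shortest S100a10 tail of that genotype, shows the plain form. It is set beside the 4 tags of the listed genes whose string ends in the bases listed as added after the tail, in capitals, with T standing for U.
S100a10, DKO replicate 2: aaaaaaaaaaaaaaaaaaaaaaaaaaaa
S100a10, WT replicate 1: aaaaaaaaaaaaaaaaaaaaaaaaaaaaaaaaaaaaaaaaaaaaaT
Vim, WT replicate 2: aaaaaaaataaataaaaTGAAA
Crip1, DKO replicate 1: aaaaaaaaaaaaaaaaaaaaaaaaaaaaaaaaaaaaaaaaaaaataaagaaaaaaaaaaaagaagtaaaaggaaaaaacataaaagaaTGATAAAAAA
Vim, DKO replicate 2: ttccaaaaaaaG

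The S100a10 tail that ends in 1 U was called at 45 nt. Both Vim tails that end in added bases were short, called at 17 and 7 nt. The Crip1 string held 10 bases other than A before the added ones in a tail called at 88 nt. The Vim string from WT replicate 2 held 2. In the Vim string from DKO replicate 2 the 4 such bases stand at the start, ahead of a run of A as long as the called tail. A further Crip1 tag, from WT replicate 3 and called at 33 nt, has a listed T but no string. In all, 5 of 195 tags of the listed genes carried an added base (2.56%, 95% exact Clopper-Pearson interval 0.838 to 5.88%), and 4 carried a U (2.05%, 0.562 to 5.17%). Among the 83962 other tailed tags the shares were 2.97% and 2.52%, inside those intervals.

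Every linked tag of the 5 detected genes had a tail. With 0 of 195 tags untailed, a share of up to 1.54% is allowed, while 10.1% of all gene-linked tags were untailed. That share was 5.99% to 8.04% in the libraries numbered 1 and 2, which held most of the tags of the listed genes. A lack of untailed tags is not rare for single IDs, since 62 of the 220 IDs with at least 50 linked tags also had none. All intervals and limits given here cover counting error only, and tags of amplified libraries may not be independent molecules.

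The libraries held 3943 to 24024 tailed, gene-linked tags. The libraries numbered 3 stood apart, with 24.2% and 28.0% of linked tags untailed against 5.99% to 8.04% in the others, and with only 21 of the 195 tags of the listed genes, 16 of them resting on 1 read. Results are given with and without them where they bear on a value. The 10 most-tagged IDs took 37.3% to 39.3% of the links in WT and 27.3% to 31.1% in DKO, which leaves a larger part of the DKO total to all other IDs. The marker genes of naive T cells and of other cell types, and Btg1 and Btg2 themselves, were not analysed here, because 0 of the 49997 rows of the gene table used carry an Ensembl ID. The level of a gene in such sorted populations cannot tell more cells with the mRNA from more mRNA per cell.

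S100a10 was the most tagged gene of the list, with 9, 6 and 2 tags in WT replicates 1 to 3 and 24, 33 and 3 tags in the DKO replicates. Per 10000 tailed, gene-linked tags these levels were 5.31, 5.27 and 2.79 for WT against 11.6, 13.7 and 7.61 for DKO. Every DKO library lay above every WT library. The same order held for 53 of the 508 IDs with at least 20 tags over all libraries (10.4%). The number 3 libraries were the lowest of both genotypes for S100a10. The mean over libraries was 4.46 ± 1.45 for WT (SD, n = 3) and 10.98 ± 3.11 for DKO (SD, n = 3), which is 2.47 times as high. Within number 1 the ratio was 2.19 and within number 2 it was 2.61, while number 3 rests on 2 and 3 tags. Single libraries were imprecise, with 95% exact Poisson intervals that spanned 2.43 to 10.1 in WT replicate 1 and, in DKO replicate 1, 7.44 to 17.3. Among the IDs of a library S100a10 ranked 198, 196 and 326 by tags in WT and 100, 86 and 150 in DKO. With the 10 most-tagged IDs of each library left out of the total, the mean levels were 7.15 for WT and 15.2 for DKO and the ratio was 2.13, lower than with them.

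**Figure D1:**
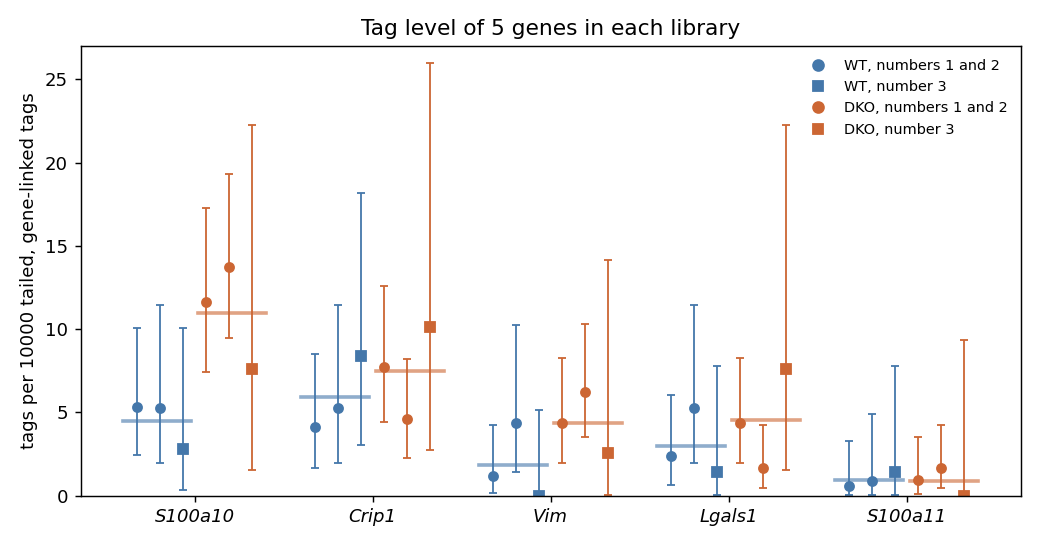
Tags per 10000 tailed, gene-linked tags (vertical axis) of the 5 detected genes in each library; points are single libraries with 95% exact Poisson intervals, squares are the libraries numbered 3, and horizontal lines are group means (n = 3). S100a10 is the gene of these 5 whose DKO libraries (7.61 to 13.7) all lie above its WT libraries (2.79 to 5.31). Of the 508 IDs with at least 20 tags over all libraries, 10.4% show this order.

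Crip1 did not share this pattern. The WT libraries held 7, 6 and 6 of its tags and the DKO libraries 16, 11 and 4, which is 4.13, 5.27 and 8.36 per 10000 in WT and 7.74, 4.58 and 10.1 in DKO. The genotypes overlapped, the highest library of each was number 3, and the group means were 5.92 ± 2.19 (SD, n = 3) and 7.49 ± 2.79 (SD, n = 3).

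For Vim 2, 5 and 0 tags were found in the WT libraries and 9, 15 and 1 in the DKO libraries. The levels were 1.18, 4.39 and 0 per 10000 in WT and 4.35, 6.24 and 2.54 in DKO, so that DKO was higher within each number but the genotypes overlapped. The 0 in WT replicate 3 allows up to 4.18 per 10000, which is above the DKO value of the same number, where 1 tag was counted. Mean levels were 1.86 ± 2.27 for WT and 4.38 ± 1.85 for DKO (SD, n = 3 each).

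Lgals1 tags numbered 4, 6 and 1 for WT against 9, 4 and 3 for DKO, or 2.36, 5.27 and 1.39 per 10000 against 4.35, 1.67 and 7.61. The order of the genotypes changed between numbers, with WT the higher in number 2. S100a11, whose product binds annexin A1, had 1 tag in each WT library and 2, 4 and 0 in DKO, too few to place the genotypes. In both groups of libraries its level was thus the lowest of the 5, with means of 0.954 per 10000 in WT and 0.877 in DKO.

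No tag was linked to S100a6 (ENSMUSG00000001025), S100a4 (ENSMUSG00000001020) or Anxa2 (ENSMUSG00000032231) in any library of the tables used here. Whether the tables cover all tags of these 3 genes is not known. If they do, a count of 0 allows up to 1.25 per 10000 in DKO replicate 2, the deepest library, and up to 7.61 in DKO replicate 3, the shallowest. No value for annexin A2 can thus be set beside that of its partner S100a10. An ID was linked to 19.0% to 28.3% of the mapped tags of a library, and the limits concern linked tags only.

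By mean level the order in DKO was S100a10, Crip1, Lgals1, Vim and S100a11. In WT it was Crip1, S100a10, Lgals1, Vim and S100a11. Neighbours in both orders overlapped between libraries, including S100a10 and Crip1 in DKO, with 7.61 to 13.7 and 4.58 to 10.1 per 10000. The exception was Vim over S100a11 in DKO, with 2.54 to 6.24 against 0 to 1.67. Each transcript gives its 3' end once in this assay, so these levels were not divided by length.

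Over the 8 genes together the tags made up 0.136%, 0.211% and 0.139% of tailed, gene-linked tags in WT and 0.290%, 0.279% and 0.279% in DKO. The DKO libraries were nearly equal, and all 3 lay above the WT libraries. Exact intervals for counting error were wide, however, at 0.139% to 0.499% in DKO replicate 3, which held 11 of these tags. The interval of WT replicate 2, 0.135% to 0.313%, overlapped those of DKO replicates 1 and 2, at 0.222% to 0.373% and 0.216% to 0.354%. The near-equality of the DKO libraries is therefore no measure of their precision. The means were 0.162% ± 0.0423 (SD, n = 3) and 0.283% ± 0.00652 (SD, n = 3), a ratio of 1.75, which was 1.52 with the 10 most-tagged IDs left out of the totals. In numbers 1 and 2 alone the difference was 0.111 percentage points, against 0.121 over all libraries. S100a10 made up 29.8% of the tags of these genes in WT and 43.5% in DKO. Without S100a10 the genotypes overlapped, with WT libraries from 0.0826% to 0.158% and DKO libraries from 0.142% to 0.203%.

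In edgeR's quasi-likelihood test, with library sizes scaled by TMM (trimmed mean of M-values), 170 IDs had enough tags to be tested, and S100a10 and Crip1 were among them. S100a10 had a log2 change (DKO over WT) of 1.24 with a standard error of 0.48 (edgeR, Benjamini-Hochberg adjusted p = 0.46 over the 170 IDs). It was the third highest log2 change of the 170, whose median was -0.05. Crip1 had a log2 change of 0.20 with a standard error of 0.54 (edgeR adjusted p = 0.94). No ID passed an adjusted p of 0.05, so the called share was 0% for the listed genes and 0% of all IDs, with 13 IDs at an unadjusted p under 0.05 in edgeR and 8 in DESeq2. With library totals in place of TMM scaling the median over IDs moved to 0.24 and S100a10 to 1.54 (edgeR adjusted p = 0.29).

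S100a10 entered this test through its DKO libraries alone. The filter asks for about 6.97 tags per 10000 in at least 3 libraries, which S100a10 reached in 3 DKO and 0 WT libraries. It is 1 of 4 IDs of which this holds, and such an ID has to differ between the genotypes. Of the 170 IDs, 19 (11.2%) had every DKO library above every WT library. Among the 508 IDs with at least 20 tags over all libraries, the share was 10.4%, and S100a10 was 1 of 4 listed genes in that set (with Crip1, Vim and Lgals1). Since the list was made with these values known, nothing is read from that share. Without any filter the log2 change of S100a10 was 1.33 (standard error 0.69, edgeR adjusted p = 0.64 over 6469 IDs), where the median over IDs was 0.54. That of Vim was 1.33 (standard error 0.82), of S100a11 0.56 (standard error 1.12), of Crip1 0.31 (standard error 0.70) and of Lgals1 0.22 (standard error 0.81), and none of these was called.

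**Figure D2:**
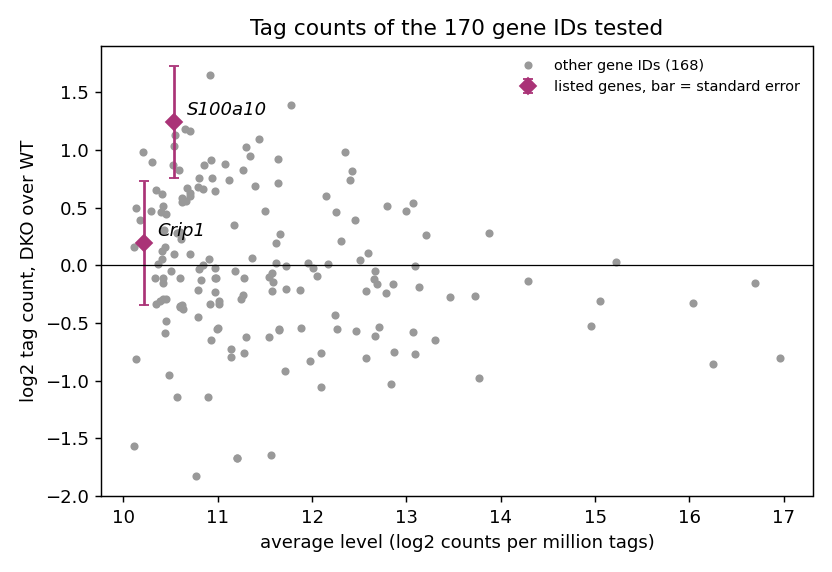
The log2 change in tag count (DKO over WT, vertical axis) against the average level (log2 CPM, horizontal axis) of the 170 IDs tested; diamonds are the listed genes with their standard error. S100a10, at 1.24, lies near the upper edge of the other IDs of its level, and Crip1, at 0.20, lies in their midst.

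Over tag counts the libraries numbered 3 deviated together from their group means (r = 0.38). Those numbered 1 and 2 did so no more within a number (0.14 and 0.21) than across numbers (0.29 and 0.38). In a fit that takes the number as a replicate block, edgeR called 3 of the 170 IDs (1.76%), and S100a10 was not one of them (log2 change 1.20, standard error 0.53, edgeR adjusted p = 0.30). In the libraries numbered 1 and 2 alone edgeR called 30 of 241 IDs. S100a10 was again not among those called, with a log2 change of 1.08 (standard error 0.46, edgeR adjusted p = 0.092). Without DKO replicate 1 or without DKO replicate 2 it did not pass the filter and has no value.

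The 2 IDs outside the list whose levels ran most like those of S100a10 were ENSMUSG00000019210.10 and ENSMUSG00000040128.9. Their Pearson r with S100a10 was 0.98 and 0.97 over 6 libraries, on log2 tags per 10000 among 169 IDs. The first had 10.6, 11.4 and 5.57 tags per 10000 in WT and 22.3, 21.2 and 15.2 in DKO. Its genotypes did not overlap either, as in 11.2% of the 170 IDs tested. Since it was picked for its likeness to S100a10, this is no separate result. Crip1 ranked 101 of the 169, with an r of -0.10. The 6 points share library depth and genotype, and r is given as a description.

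The mean S100a10 tail was longer in DKO than in WT in the deeper libraries, numbered 1 and 2, and not in the shallow ones. In WT replicate 1 the 9 tails ran from 25 to 102 nt with a mean of 56.9 nt, and in WT replicate 2 the 6 tails from 37 to 103 nt with a mean of 69.0 nt. In DKO replicate 1 the 24 tails ran from 32 to 139 nt with a mean of 77.3 nt, and in DKO replicate 2 the 33 tails from 28 to 187 nt with a mean of 90.1 nt. Both DKO means lay above both WT means, as in 40 of the 223 IDs (17.9%) with at least 5 tags in each of these libraries. Standard errors over the S100a10 tags were 8.56 and 10.8 nt in these WT libraries and 5.44 and 7.57 nt in DKO. In number 3 the order was the other way round, at 110.5 nt over 2 tags in WT and 91.3 nt over 3 in DKO.

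Over all 3 libraries the S100a10 means were 78.8 nt ± 28.1 for WT (SD, n = 3) and 86.2 nt ± 7.78 for DKO (SD, n = 3), a difference within the spread. It was 23.3 nt without WT replicate 3, whose mean rests on 2 tags, and turned to -3.50 nt without WT replicate 1. Over single tags the median was 59 nt for the 17 in WT and 79 nt for the 60 in DKO. Tails of at least 90 nt were 4 of 17 in WT (23.5%, 95% exact interval 6.81 to 49.9%) and 25 of 60 in DKO (41.7%, 29.1 to 55.1%). Tails under 30 nt were rare in both, with 1 of 17 and 2 of 60.

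Library-wide tail length moved in the same direction in part. The mean over all tailed, gene-linked tags was 74.7 and 70.3 nt in WT replicates 1 and 2 and 72.3 and 78.9 nt in DKO, and 48.3 and 60.9 nt in number 3. The mean S100a10 tail differed from that of its library by -17.8 and -1.30 nt in WT replicates 1 and 2 and by 5.03 and 11.2 nt in DKO. In number 3 it exceeded the library mean by 62.2 nt in WT and, less, by 30.4 nt in DKO. Over all 3 libraries the genotypes' difference in S100a10 tails was 1.19 nt once each library's mean was subtracted, against 7.45 nt before. Taken as a percentile among all tails of its library, the S100a10 tags averaged 50.2 in WT and 58.9 in DKO. The difference of 8.64 ranked 31 of the 382 IDs with at least 10 tags in each genotype, whose median was -2.13 (quartiles -6.94 and 3.28). The S100a10 difference thus lies above the upper quartile of these IDs, but pooling tags leaves out how libraries vary.

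**Figure D3:**
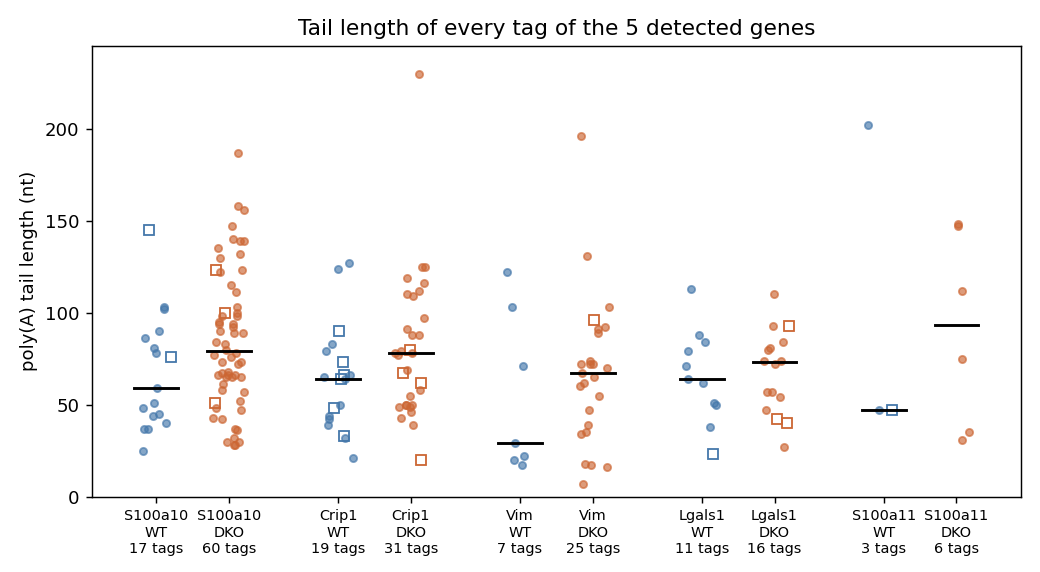
Poly(A) tail length in nt (vertical axis) of each of the 195 tags of the 5 detected genes, by genotype; open squares are tags of the libraries numbered 3 and black lines are medians over tags. The S100a10 medians are 59 (WT) and 79 nt (DKO). The Vim medians are 29 nt over 7 WT tags, 5 of them from WT replicate 2, and 67 nt over 25 DKO tags. The tails of the genotypes overlap in each gene.

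Mean Crip1 tails measured 80.0, 46.0 and 62.3 nt for the WT libraries and 72.6, 101.6 and 57.3 nt for the DKO libraries. DKO was lower in numbers 1 and 3 and higher in number 2, so the genotypes overlapped (62.8 nt ± 17.0 and 77.2 nt ± 22.5, SD, n = 3). DKO replicate 2 held the longest tail of all 195, at 230 nt.

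Vim tails were the shortest relative to their libraries among the 4 genes with at least 20 tags. In WT, 4 of its 7 tails were under 30 nt, 3 of them in WT replicate 2, and in DKO 4 of 25 were. The means were 66.0 and 50.4 nt in WT replicates 1 and 2, over 2 and 5 tags, and 68.2 and 64.7 nt in DKO replicates 1 and 2, over 9 and 15 tags, while DKO replicate 3 had 1 tail of 96 nt. By the mean percentile within libraries Vim stood at 43.0 over its 32 tags, which is rank 434 from the longest of 508 IDs with at least 20 tags. S100a10 stood at 56.9 (rank 164), Crip1 at 55.3 (rank 201) and Lgals1 at 51.0 (rank 307), around a median of 52.9 with quartiles of 46.9 and 58.96. Vim alone of these genes therefore lay below the lower quartile.

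Lgals1 tails hardly differed between the genotypes where they could be counted, at 78.0 and 64.7 nt in WT replicates 1 and 2 and 71.6 and 66.5 nt in DKO. In number 3 the single WT tail was 23 nt long and the 3 DKO tails had a mean of 58.3 nt. The S100a11 tails ranged from 47 to 202 nt over 3 tags in WT and from 31 to 148 nt over 6 in DKO.

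None of the listed genes had 10 tailed tags in every library, so none entered the limma test of mean tail length over 44 IDs. A fit to the libraries numbered 1 and 2 with at least 5 tags in each, chosen after the values were seen, took in S100a10 and Crip1 among 223 IDs. The log2 change in mean tail (DKO over WT) was 0.41 for S100a10 with a standard error of 0.16 (limma adjusted p = 0.88), and 0.50 for Crip1 with a standard error of 0.32 (limma adjusted p = 0.95). No ID was called (0%), with 8 at an unadjusted p under 0.05. Both DKO means lay above both WT means in 40 of the 223 IDs (17.9%), S100a10 among them and Crip1 not. Over the 223 IDs the log2 change had a median of 0.02, and with each library centred on its median S100a10 had 0.38 (limma adjusted p = 0.78).

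Over all tags of the 5 detected genes the mean tail was 74.7, 57.4 and 66.5 nt for the WT libraries and 75.6, 83.8 and 70.4 nt for the DKO libraries. The highest WT library exceeded the lowest DKO library, and the means were 66.2 nt ± 8.66 (SD, n = 3) and 76.6 nt ± 6.78 (SD, n = 3). The difference of 10.4 nt was 13.7 nt in numbers 1 and 2 alone, 6.50 nt without S100a10, 5.99 nt without WT replicate 2 and 6.78 nt without DKO replicate 2. The other tags of the same libraries had 64.4 nt ± 14.2 and 70.7 nt ± 9.11 (SD, n = 3). In number 3 the mean tail of the listed genes was above that of the rest, at 66.5 against 48.3 nt in WT and 70.4 against 60.9 nt in DKO. These means rest on 10 and 11 tags, and 16 of the 21 were single reads. Whether either gap exceeds the error from so few tags was not tested.

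By class, pooled over libraries, the class from 90 to under 150 nt held 17.5% of the 57 tags in WT (95% exact interval 8.75 to 29.9%) and 30.4% of the 138 in DKO (22.9 to 38.8%). Among all other IDs it held 18.4% and 23.4%. Tails under 30 nt made up 12.3% (5.08 to 23.7%) and 5.80% (2.54 to 11.1%), against 13.3% and 8.81% among the others. The shares of the other IDs lay inside the intervals of the listed genes in all 5 classes and both genotypes, so that a difference in tail classes between these genes and the rest was not detectable at this depth.

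**Figure D4:**
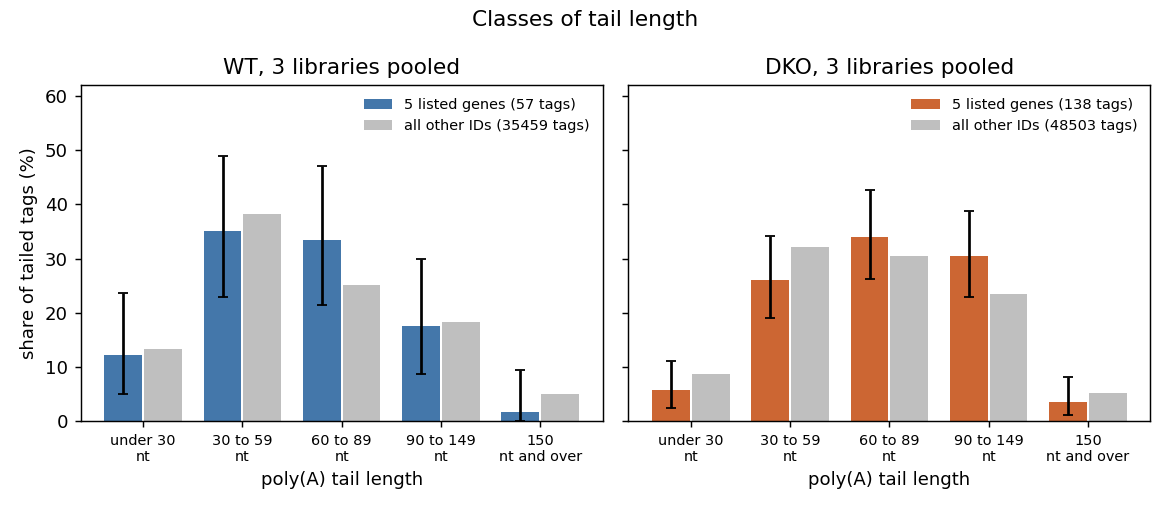
Share of tailed tags in 5 classes of tail length (percent, vertical axis) for the listed genes (coloured, with 95% exact intervals for counting error) and for all other IDs (grey), in WT and DKO with 3 libraries pooled. In DKO the class from 90 to under 150 nt holds 30.4% of the tags of the listed genes and 23.4% of the others, which is inside the interval.

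The tags of the listed genes rested on few reads, with 508 reads in 195 tags and 1 to 14 reads in each. Of these tags 51.8% were single reads, against 45.0% of the other tailed tags. S100a10 held 33, 20 and 2 reads in WT and 86, 77 and 3 in DKO, and its tags in number 3 were all single reads.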

How the data were processed

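Per the labels, mTAIL-seq libraries of sorted naive CD4 T cells were made from 3 WT and 3 DKO samples. The submitters' processing notes name GSNAP, bedtools, mm10 and GRCm38, with the tail caller and annotation release not given in the sources used here. Deposited by the authors, and used here, were each library's mapped tags with their count of reads and tail length in nt, links of tags to Ensembl IDs, and tables per ID. The deposited tag counts of the listed genes equalled the recomputed ones in 28 of 28 cases. The members, lists and tests were chosen with earlier results of these data known. Gene names come from the list that defines these genes; promoter sequences were not used.

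Tags were joined to IDs, and counts of tailed tags were tested across all IDs with edgeR 4.0.16 (filterByExpr, TMM, quasi-likelihood), with DESeq2 1.42.0 as an alternative. The log2 mean tail was tested with limma 3.58.1 (lmFit, eBayes), both with Benjamini-Hochberg adjustment at 0.05, in R 4.3.3. Both were tested on simulated data. Shares, intervals and figures used Python 3.11.15, SciPy 1.17.1 and matplotlib 3.10.9. All 8 genes were named by rule, with the 2 IDs of highest r to S100a10. Levels used 0.5 added tags on the log2 scale for r alone.

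Same-numbered libraries deviated together from their group means (r = 0.14, 0.21 and 0.38 over tag counts of 170 IDs, and 0.25, 0.40 and 0.52 over tails of 44 IDs). Over tag counts, libraries 1 and 2 of different genotypes did so more across numbers (0.29 and 0.38) than within a number (0.14 and 0.21). The main fits did not take the numbers as pairs, and the replicate block was used as an alternative setting only. The lists of pathway genes and cell type markers were not analysed here, for want of names.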

Additional observations from a re-analysis of the deposited data

How the results depend on the processing

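The count of IDs called for tag number was 0 over all libraries, 3 with the replicate block and 30 in numbers 1 and 2 alone. It was 0 to 8 on leaving out single libraries (8 without WT replicate 3), and the cause was not tested. No listed gene was called in the fits that held one. Without DKO replicate 1, without DKO replicate 2, or with untailed tags counted in, no listed gene was in the fit, so none could be called. Of the listed genes S100a10 alone was tested in numbers 1 and 2 and without WT replicate 1. The count for tail length stayed at 0 under 16 alternatives, the replicate block included. Of the listed genes only S100a10 and Crip1 were in any of these fits, those on numbers 1 and 2 with at least 5 tags. The block changed no other call. The log2 change of S100a10 in tag count was 0.98 to 1.42 in the 4 fits with 1 library left out that tested it. That of Crip1, 0.20 over all libraries, was -0.013 without DKO replicate 3 and up to 0.31 without another. The difference in the summed share (DKO minus WT, 0.121 percentage points) was 0.108 to 0.145 on leaving out single libraries and 0.0555 without S100a10, the gene with the most tags. The difference in mean tail over the listed genes, 10.4 nt, was 5.99 to 14.7 nt when 1 library was left out. Single-library shares and means rest on 10 to 67 tags, which sets their precision.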
